A study of Mus musculus with 3 samples.

Results

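The 9 core genes of the Hedgehog pathway were examined in sorted cap mesenchyme of the embryonic mouse kidney: the ligand genes Shh, Ihh and Dhh, the receptor gene Ptch1, the signal transducer gene Smo, the inhibitor gene Sufu, and the transcription factor genes Gli1, Gli2 and Gli3. Every probe set whose only gene symbol in the platform annotation was one of these names was taken, which gave 20 of 34945 single-gene probe sets, for 9 of 18193 named genes. Cap mesenchyme is the progenitor tissue that surrounds the ureteric tips and forms nephrons. The cells were sorted by fluorescence from dissociated kidneys of CD-1 embryos at E15.5 (Theiler stage 23) that carried the transgene Tg(Six2-EGFP/cre)1Amc, which puts EGFP and cre under control of Six2, so the sort took whatever cells held enough EGFP. There was 1 group of 3 samples, called pools 1 to 3. Each was a pool of about 5 to 10 kidneys on its own array, the labels list embryo sex as unknown, and no other cell population or genotype was analysed here. The labels do not say whether the pools came from separate litters, so p-values measure the spread between these 3 pools, which may be technical.

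Hedgehog proteins are secreted, lipid-modified signals. Without ligand, the receptor Ptch1 holds Smo inactive, and the Gli proteins are bound by Sufu and phosphorylated, so that Gli3 in particular is processed into a repressor. Ligand binding to Ptch1 frees Smo, which acts in the primary cilium and lets Gli2 and Gli3 turn on target genes, among them Gli1, Ptch1 and Hhip. In the developing mouse kidney Shh is made by the epithelium of the ureter and the medullary collecting ducts, and Gli3 repressor is known to limit the expression of kidney patterning genes.

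A probe set was set against the background level of its own array, since the study has a single group. The background level was the 95th percentile of 150 probe sets for olfactory, vomeronasal and bitter taste receptors, keratin-associated proteins and defensins, and its signal was 197, 186 and 201 in pools 1, 2 and 3. Signals are linear array intensities. A probe set was called above background at a Benjamini-Hochberg adjusted p under 0.05 in limma's one-sided test of log2(signal + 16), and a gene if any of its probe sets was. Each SE of a log2 distance, here and in the figures, is limma's. It draws the spread of a probe set toward that of all probe sets of like intensity, so it is not the SE of its 3 values alone. Of the 9 Hedgehog genes, 5 were called, namely Ptch1, Smo, Sufu, Gli2 and Gli3, against 54.4% of all named genes. Of their 20 probe sets, 7 were called, against 47.2% of single-gene probe sets and 41.5% of all probe sets. The shares lie near those of all features, so the counts say nothing particular of the pathway. The median distance of the 9 genes from background was 2.57 on the log2 scale, against 1.20 over all named genes, each gene by its probe set with the highest level. The Hedgehog genes had 2.22 probe sets each on average, against 1.92 over all named genes, and probe sets differ in affinity, so such medians only describe a list and no gene is ranked against another.

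**Figure D1:**
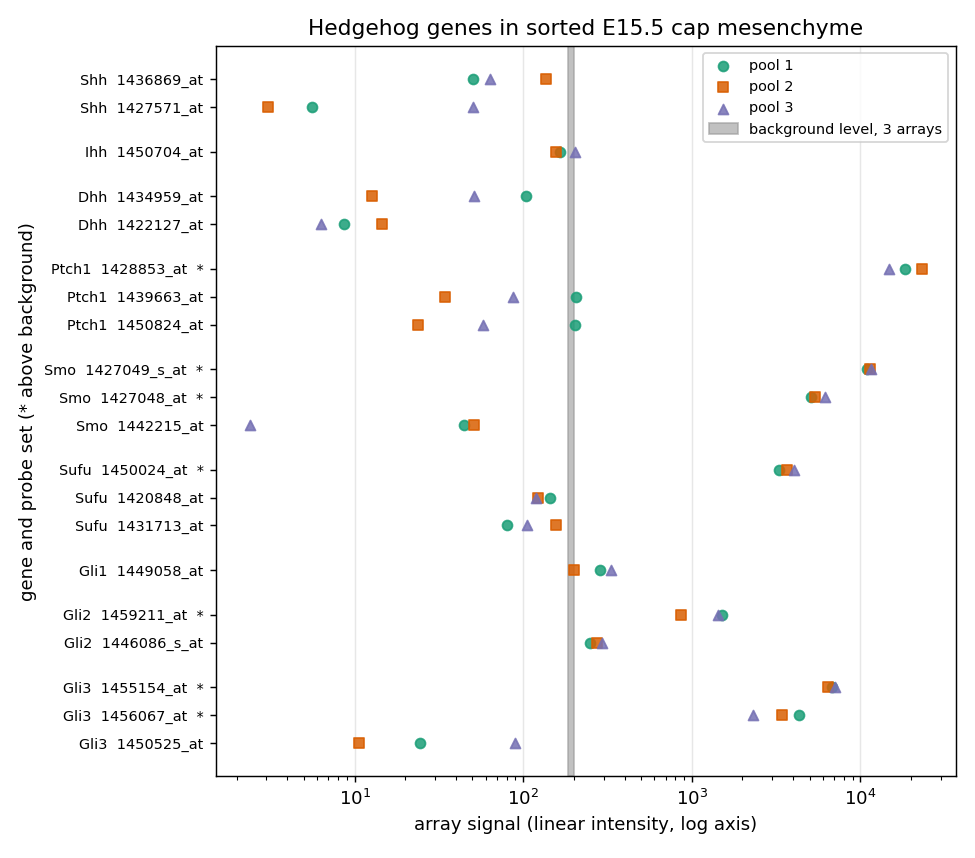
Signal of each Hedgehog probe set (rows, grouped by gene) on a log axis in pools 1, 2 and 3 (circles, squares and triangles), with the background level of the 3 arrays as a grey band from 186 to 201. Probe sets marked * were above background: 7 lie right of the band in all 3 pools, whereas both Shh and both Dhh probe sets lie left of it in all 3.

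No ligand gene was above background. Shh, which encodes the main ligand of the ureteric tree, read 50.6, 136 and 63.4 in pools 1, 2 and 3 on the probe set 1436869_at and 5.60, 3.06 and 50.3 on 1427571_at. All 6 values were under the background level of their arrays. The brighter of these probe sets was at -1.18 ± 0.40 on the log2 scale relative to background (SE, n = 3, adjusted p = 1.00, limma). Dhh, the ligand gene best known from Schwann cells and the testis, read 104, 12.7 and 51.5 on 1434959_at and 8.66, 14.5 and 6.32 on 1422127_at. These values too were under the level in every pool, at -1.77 ± 0.44 on the log2 scale for the first of the pair (SE, n = 3, adjusted p = 1.00, limma). Ihh, known from cartilage and gut epithelium, had a single probe set, which read 165, 156 and 203. It exceeded the level in pool 3 alone, by a small margin, and its mean lay at -0.15 ± 0.30 on the log2 scale (SE, n = 3, adjusted p = 1.00, limma). Transcripts of these ligands may still be present, as a probe set that binds its target weakly gives little signal. In bulk arrays, fewer cells that express a gene and less RNA per cell cannot be told apart.

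Markers of ureteric bud and collecting duct were mostly not called, and those of 5 further cell types were not called at all. Of 10 markers of ureteric bud and collecting duct 2 passed (20%, against 54.4% of all named genes), Wnt11 (445 ± 159) and Krt8 (351 ± 86.7, SD, n = 3 each). Their call count fell to 1 without pool 2 or without pool 3, where Krt8 did not pass, and to 0 at the 99th percentile of background. The summed signal of this list was 1390, 1009 and 1941 in pools 1, 2 and 3, and the receptor gene Ret, which defines the ureteric tip, averaged 139 ± 9.75 (SD, n = 3), under the background level. Of 6 proximal tubule markers 0 passed, of 6 endothelial markers 0, and of 3 measured markers of Schwann cells and nerves 0. The macrophage and erythroid lists gave 0 calls of 6 and of 5 measured genes. In limma, 0 genes of these 5 lists reached an unadjusted p under 0.05.

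**Figure D2:**
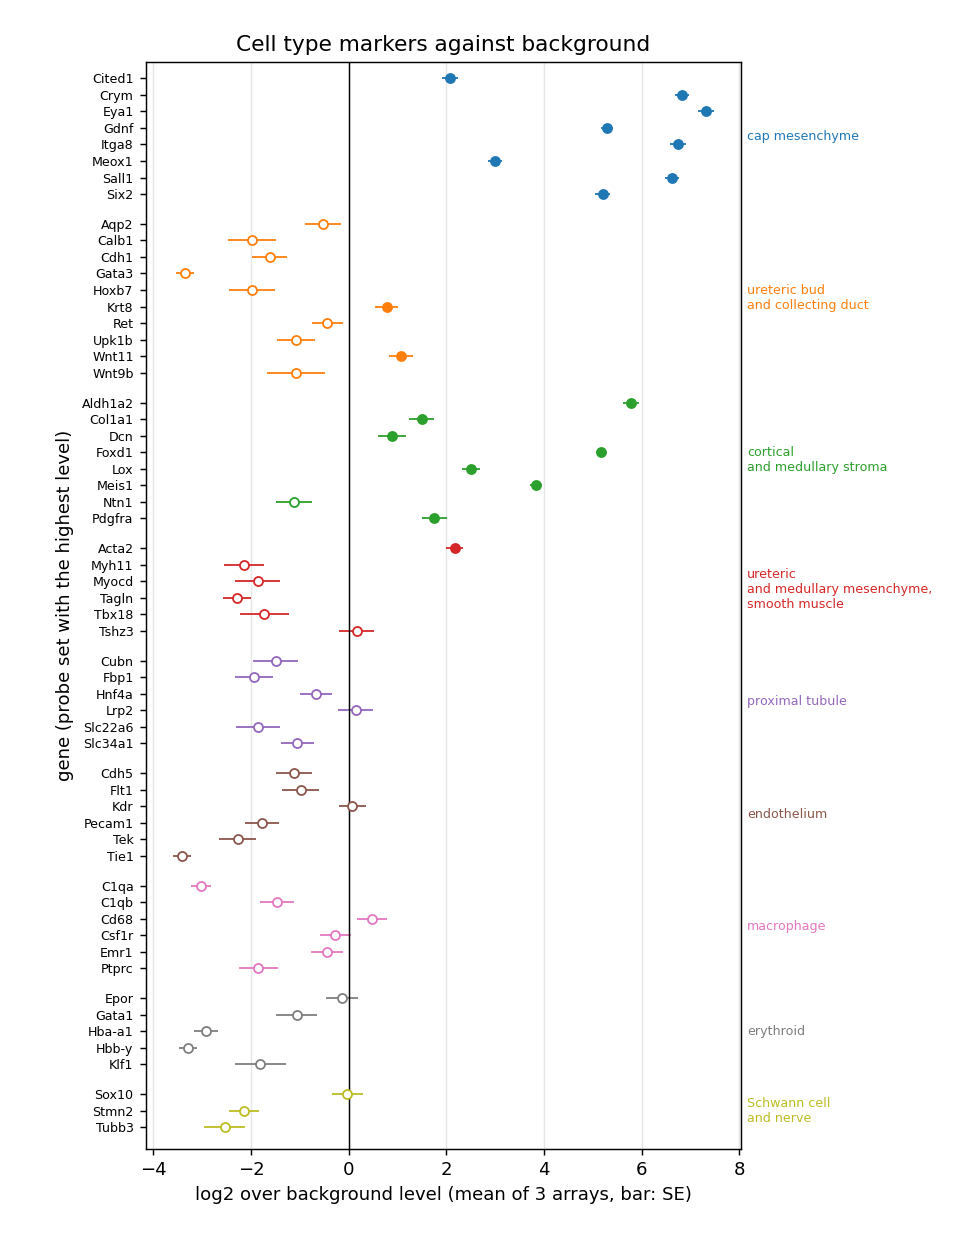
Distance from background on the log2 scale (mean of 3 arrays, bars show the SE) of the marker genes of 9 cell types, each by its probe set with the highest level. Filled points are genes above background: all 8 cap mesenchyme genes, 7 of 8 stromal genes and 2 of 10 ureteric genes are filled, and no gene of the proximal tubule, endothelial, macrophage, erythroid or nerve lists is.

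Receptor and transducer transcripts were far above background. Ptch1, the receptor that binds the ligands and restrains Smo, read 18382, 23212 and 14868 in pools 1, 2 and 3 on 1428853_at. These values were well over the level in every pool, and the distance was 6.46 ± 0.17 on the log2 scale (SE, n = 3, adjusted p = 2.1e-08, limma). The other Ptch1 probe sets, 1439663_at and 1450824_at, read 207, 34.5 and 87.1 and 202, 23.6 and 57.9. Both were slightly over the level in pool 1 only, and neither was called. Smo, the membrane protein that carries the signal into the cell, read 10937, 11414 and 11631 on 1427049_s_at and 5070 (pool 1), 5376 and 6157 on 1427048_at. The first of these can match several transcripts. The pools were close to each other on both, and the distances from background were 5.75 ± 0.12 and 4.72 ± 0.12 on the log2 scale (SE, n = 3 each, adjusted p = 1.6e-08 and 1.8e-08, limma). A further Smo probe set, 1442215_at, read 44.3, 50.8 and 2.39 and was not called.

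The co-receptors of Ptch1 were above background as well. Of 4 measured genes for co-receptors and membrane inhibitors, 3 passed (75%), against 54.4% of all named genes. The median distance was 2.77 on the log2 scale, against 1.20 over all named genes. By probe set, 5 of 12 were called (41.7%), against 47.2% of single-gene probe sets. A gene with more probe sets has more ways to pass, so little can be read from the share of these 4 genes. Gas1, which encodes a membrane-anchored co-receptor, read 27698, 28274 and 24533 on its brightest probe set. Cdon read 1861, 1582 and 1572, and Boc, which encodes a protein of the same family, read 1126, 1326 and 1196. The adjusted p of these 3 genes in limma were 1.6e-08, 2.9e-07 and 1.3e-06, and the signals given here exceeded the level in each pool. Each of the 3 genes also had a probe set that was not called. Hhip, which encodes a membrane protein that binds and sequesters the ligands, was not called on any of its probe sets, the brightest of which read 192, 83.6 and 146.

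Genes for the preparation and release of ligand were called in 3 of 5 cases (60%), near the 54.4% of all named genes, and their median distance of 1.16 on the log2 scale was close to the 1.20 of all named genes. Disp1, which exports the lipid-modified ligands, read 1496, 2095 and 1549 on its brightest probe set (adjusted p = 8.2e-07, limma). Scube3, a secreted protein of the family that helps solubilise the ligands, read 5249, 4277 and 5121 (adjusted p = 2.0e-08, limma). Hhat, the acyltransferase that attaches palmitate to Hedgehog proteins, read 426, 526 and 417 on its brighter probe set (adjusted p = 0.0012, limma). Hhat did not pass with the 99th percentile as the level, and its other probe set was not called. Scube1 and Scube2 were not called. Scube1 read 87.3, 31.6 and 37.2, under the level in every pool, as was Scube2.

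The 3 Gli genes differed in their calls. Gli3, the main source of Gli repressor, read 6812, 6396 and 7121 on 1455154_at, with a distance from background of 5.01 ± 0.12 on the log2 scale (SE, n = 3, adjusted p = 1.6e-08, limma). A second Gli3 probe set, 1456067_at, read 4330 (pool 1), 3447 and 2318, at 3.96 ± 0.19 on the log2 scale (SE, n = 3, adjusted p = 4.4e-07, limma). On the first probe set the pools lay close together, and on the second pool 1 was highest and pool 3 lowest. The third, 1450525_at, read 24.6, 10.7 and 89.5 and was not called. Gli2, the main activator of the family, read 1514, 860.1 and 1426 on 1459211_at, over the level in every pool and lowest in pool 2. Its distance was 2.57 ± 0.18 on the log2 scale (SE, n = 3, adjusted p = 4.9e-06, limma). The other Gli2 probe set, 1446086_s_at, read 248, 273 and 294, which exceeded the level in each pool but was not called (0.45 ± 0.25 on the log2 scale, adjusted p = 0.13, limma).

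Gli1, the activator whose transcription is itself a readout of the pathway, stayed at the edge of background. Its probe set read 286, 199.7 and 332 in pools 1, 2 and 3, above the level in each pool, by 0.43 ± 0.26 on the log2 scale (SE, n = 3). It was not called (adjusted p = 0.17, limma), and its adjusted p ranged from 0.038 to 1.00 over 12 alternatives. With the background level at its 90th percentile Gli1 passed, at 0.74 on the log2 scale, and at the 99th percentile it lay under the level, at -0.70. Whether Gli1 was expressed could therefore not be settled at this signal.

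Sufu, the cytoplasmic inhibitor that binds Gli proteins, read 3312, 3683 and 4066 on 1450024_at, at 4.13 ± 0.12 on the log2 scale (SE, n = 3, adjusted p = 3.4e-08, limma). Its other probe sets, 1420848_at and 1431713_at, stayed under the level in every pool, at 145, 123 and 119.7 and at 80.3, 158 and 105. Genes listed as intracellular regulators of Gli proteins were called in 19 of 19 measured cases, against 54.4% of all named genes. Their median distance was 3.74 on the log2 scale, against 1.20. By probe set, 42 of 55 were called (76.4%), against 47.2% of single-gene probe sets. Calls and medians of genes can rise with the number of probe sets per gene. Kif7, the ciliary kinesin that organises Gli proteins at the cilium tip, read 1955, 2452 and 2836 (adjusted p = 1.9e-07, limma). Gpr161, the ciliary receptor that raises cyclic AMP and so favours Gli3 repressor, read 2639, 2761 and 3116 on its brighter probe set (adjusted p = 5.1e-08, limma). Prkaca, a catalytic subunit of the protein kinase that starts Gli phosphorylation, read 12919, 9254 and 10258 on its brightest probe set (adjusted p = 1.6e-08, limma). That probe set can match several transcripts, and the other Prkaca probe set read 1004, 736 and 743. Spop, which with Cul3 marks full-length Gli proteins for degradation, read 8657, 8867 and 11545 on its brightest probe set (adjusted p = 1.6e-08, limma). Gpr161 and Spop each also had a probe set that was not called. Evc2, a ciliary partner of Smo, read 852, 587 and 931 (adjusted p = 2.8e-05, limma). Many genes of this list, among them Gsk3b, Csnk1a1 and Cul1, act in other pathways too. With the 99th percentile as the level Evc did not pass, nor did Arrb2 once probe sets shared by several transcripts were left out.

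Genes of the primary cilium that Hedgehog signalling needs were called in 9 of 10 measured cases (90%), against 54.4% of all named genes, with a median distance of 3.86 on the log2 scale, against 1.20. By probe set, 15 of 18 were called (83.3%), against 47.2% of single-gene probe sets. Here too, calls and medians of genes can rise with the number of probe sets per gene. Arl13b, also on this list, was not measured. Ift88, a subunit of the intraflagellar transport machinery, read 2779, 3684 and 3698 (adjusted p = 7.5e-08, limma). Tulp3, which brings receptors such as Gpr161 into the cilium, read 5800.4, 4758 and 6899 on its brightest probe set (adjusted p = 2.4e-08, limma). Tctn1, a protein of the ciliary transition zone, read 401, 133 and 435. It was under the level in pool 2 and was not called (adjusted p = 0.20), but passed when pool 2 was left out (adjusted p = 0.029, limma).

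**Figure D3:**
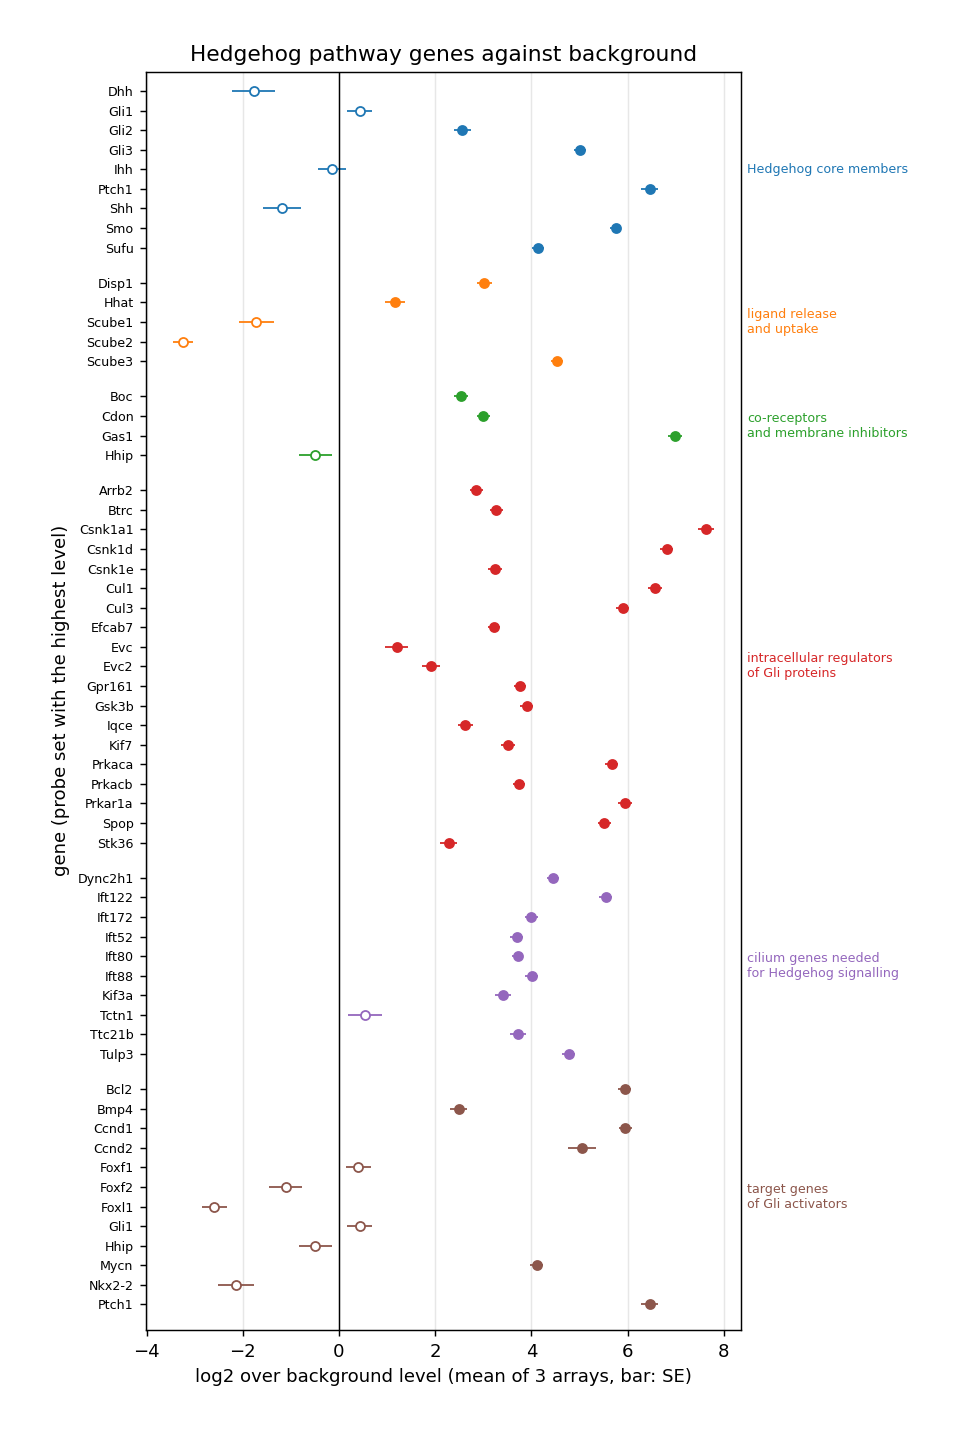
Distance from background on the log2 scale (mean of 3 arrays, bars show the SE) of the Hedgehog genes and of 5 further lists of pathway genes, each gene by its probe set with the highest level. Filled points are genes above background: 5 of 9 core genes, 19 of 19 intracellular regulators, and 6 of 12 target genes are filled.

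Target genes of Gli activators were split evenly, with 6 of 12 measured genes called, near the 54.4% of all named genes, and a median distance of 1.46 on the log2 scale, against 1.20. The list holds Ptch1 and Gli1, described above. Ccnd1, a G1 cyclin gene, read 11276, 14038 and 13997 on its brightest probe set (adjusted p = 1.6e-08, limma). Mycn, a growth regulator of progenitor cells, read 4003, 2999 and 3927 on its brightest probe set (adjusted p = 4.2e-08, limma). Its other probe sets, 1425923_at and 1425922_a_at, were not called. Bcl2, which blocks cell death, read 12049, 15014 and 11803 on its brightest probe set (adjusted p = 1.6e-08, limma). Bmp4, a signal of kidney mesenchyme, read 1172, 874 and 1531 (adjusted p = 4.5e-06, limma). Ccnd2, a second G1 cyclin gene, was called on 5 of 7 probe sets. The targets not called were Gli1, Hhip and the transcription factor genes Foxf1, Foxf2, Foxl1 and Nkx2-2, which respond in gut mesenchyme or the neural tube. Foxf1 read 268, 278 and 241 on its brighter probe set (adjusted p = 0.18, limma), and passed at the 90th percentile of background, where 8 of 12 targets did. Many signals besides Hedgehog regulate Ccnd1, Ccnd2, Mycn, Bcl2 and Bmp4.

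Kidney genes reported downstream of Gli3 repressor in the mouse were called in 4 of 5 measured cases (80%), against 54.4% of all named genes, with Gli1 not called. With 5 genes, little can be read from this share. This list shares Ccnd1, Mycn, Gli1 and Gli2 with the lists above. Its own member was Sall1, a transcription factor gene of nephron progenitors, which read 22313, 20993 and 18705 on its brighter probe set (adjusted p = 1.6e-08, limma). The signal of Pax2, also on this list, was not used here.

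The start site regions of Ptch1, Hhip and Gli2 are shown because Ptch1 and Hhip are both feedback targets of Gli proteins, 1 called and 1 not, and because Gli2 was, of the 7 Hedgehog genes with a region here, the only one to hold the core letters of the Gli binding motif. Each sequence runs from 250 bases before to 50 after the start site on the gene's own strand and is from RefSeq, build GRCm38.p6. Capitals mark, for Ptch1 and Hhip, 9 bases as close as any in the region to the consensus GACCACCCA on either strand. Other stretches can be equally close. For Gli2, capitals mark the 7-base core ACCACCC on the opposite strand.
Ptch1, chr13:63565686-63565985, minus strand: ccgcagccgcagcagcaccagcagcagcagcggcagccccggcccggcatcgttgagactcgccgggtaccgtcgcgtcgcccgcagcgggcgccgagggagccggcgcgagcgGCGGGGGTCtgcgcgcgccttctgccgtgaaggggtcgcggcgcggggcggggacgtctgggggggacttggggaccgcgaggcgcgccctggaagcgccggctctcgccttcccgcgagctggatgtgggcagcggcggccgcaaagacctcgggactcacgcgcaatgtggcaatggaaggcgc
Hhip, chr8:80057959-80058258, minus strand: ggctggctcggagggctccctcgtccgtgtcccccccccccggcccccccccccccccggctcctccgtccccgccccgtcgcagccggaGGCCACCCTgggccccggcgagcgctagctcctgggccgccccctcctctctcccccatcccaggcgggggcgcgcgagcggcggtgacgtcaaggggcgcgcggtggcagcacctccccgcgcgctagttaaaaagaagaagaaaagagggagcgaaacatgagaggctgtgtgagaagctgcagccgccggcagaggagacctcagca
Gli2, chr1:119053570-119053869, minus strand: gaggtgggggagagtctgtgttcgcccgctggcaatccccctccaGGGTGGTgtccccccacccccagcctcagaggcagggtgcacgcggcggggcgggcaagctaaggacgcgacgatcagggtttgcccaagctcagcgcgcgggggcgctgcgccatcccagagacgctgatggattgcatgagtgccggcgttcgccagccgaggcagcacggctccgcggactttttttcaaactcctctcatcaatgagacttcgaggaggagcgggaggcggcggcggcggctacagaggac
The marked 9 bases differed from the consensus at 3 positions in Ptch1 and at 2 in Hhip. Among the 63 regions found for 44 of the Hedgehog and pathway genes, 0 held GACCACCCA on either strand, against 0.253% of 32851 regions of this length in the table. At most 1 difference was seen in 2 of the 63 (3.17%), against 6.74% of all regions, and the 7-base core in 2 of the 63 (3.17%), those of Gli2 and Prkar1a, against 4.61%. The 7-base core lies within the 9-base consensus, and some genes have several regions that overlap. In Gli2 the core starts 205 bases before the start site. A match of letters does not show a binding site, and its absence here says nothing of binding elsewhere in these genes. The region of Ptch1 held 47 CpG dinucleotides, that of Hhip 30 and that of Gli2 28, against a median of 7 over all regions.

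Differences between pools were under 2-fold on every called Hedgehog probe set. Of these 7 probe sets above background, 0 differed by 2-fold or more between the highest and lowest pool, that is by at least 1 on the log2 scale, against 11.7% of all single-gene probe sets above background. The ranges ran from 0.089 for Smo (1427049_s_at) to 0.90 for Gli3 (1456067_at), with a median of 0.29, against 0.48 over all such probe sets. The highest pool exceeded the lowest 1.86-fold on that Gli3 probe set, 1.75-fold on Gli2 (1459211_at) and 1.56-fold on Ptch1 (1428853_at). With 7 probe sets a count of 0 lies near the share of all probe sets, and no test was made. Among 82 called probe sets of the other pathway genes, 13 (15.9%) reached 2-fold. Ccnd2 stood out among them: all 5 of its called probe sets did, with 12947, 6738 and 3894 in pools 1, 2 and 3 on 1416122_at, a range of 3.32-fold. Ccnd2 was highest in pool 1 and lowest in pool 3 on each of these probe sets. Csnk1e, a kinase gene, had 2862, 998 and 404 on 1417176_at, but 342, 533 and 785 on 1435373_at, so its probe sets ran opposite ways. Gsk3b had 1716, 621 and 149 on 1437001_at, a range of 10.5-fold, which its 5 other called probe sets did not show. Of the 13 probe sets, 10 (76.9%) were highest in pool 1 and lowest in pool 3, against 47.2% of the 1931 such probe sets in all. Of these 10, 5 are the probe sets of Ccnd2 alone, which are not independent of each other, so the 2 shares cannot be compared as they stand. The 3' over 5' log2 ratio of the beta-actin control probe sets was 1.82 in pool 1, 3.28 in pool 2 and 3.18 in pool 3, and that of the Gapdh control probe sets was 4.36, 5.05 and 4.08. The controls thus differ in which pool is lowest, and their part in these differences was not tested.

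**Figure D4:**
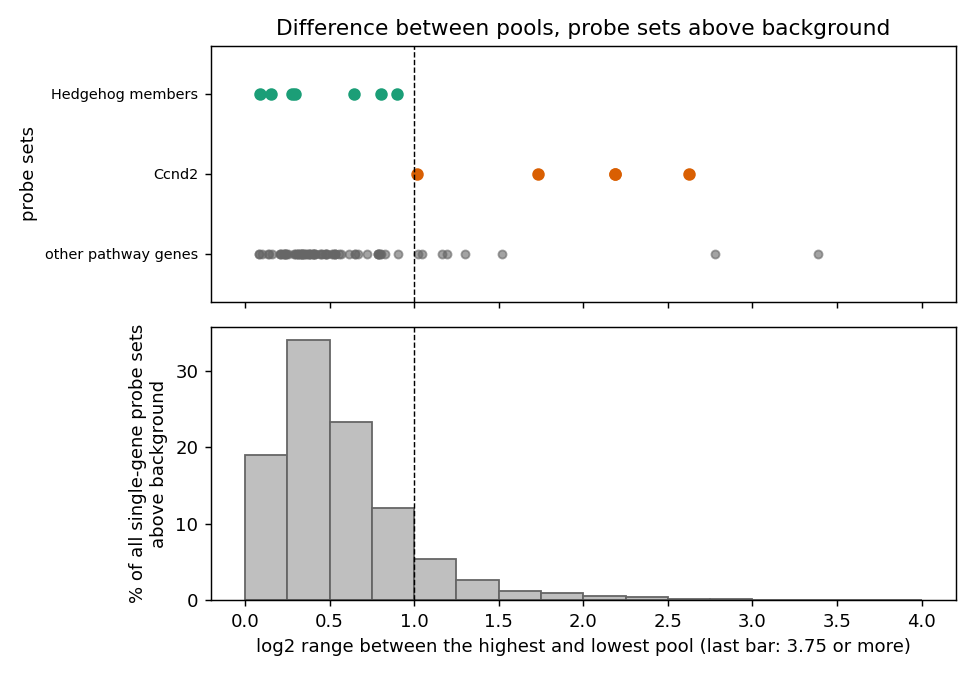
Upper panel: log2 range between the highest and lowest pool for each called probe set of the Hedgehog genes, of Ccnd2 and of the other pathway genes. Lower panel: the same for all single-gene probe sets above background, as percent per bin; the dashed line marks a range of 1 (2-fold), which 0 of 7 Hedgehog probe sets and all 5 of Ccnd2 reach (of these, 2 points coincide at 2.19).

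Probe sets of 1 Hedgehog gene often disagreed. All 5 called genes have several probe sets, and each had at least 1 that was not called, against 64.4% of all called genes with several probe sets. With 5 genes, little can be read from this difference. The RNA had been amplified in 2 rounds. The 3' over 5' log2 ratios of the controls were far over 0 in every pool, from 1.82 to 3.28 for beta-actin and from 4.08 to 5.05 for Gapdh. Where the Hedgehog probe sets lie along their transcripts was not known here, and the part of this in their disagreement was not tested. Shh and Dhh with both probe sets under the level, and Ihh and Gli1 with 1 probe set each, are open to the same limit.

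The sorted cells carried the defining markers of cap mesenchyme, with 8 of 8 called, against 54.4% of all named genes. Six2 read 8734, 5727 and 9255, and Cited1 770.2, 1009 and 853. The cells were sorted by EGFP under control of Six2, so the Six2 call is no separate support for their identity. Markers of stroma, a tissue that in the mouse kidney also expresses Hedgehog receptors and Gli genes, were called in 7 of 8 cases (87.5%). By probe set, 8 of 17 stromal ones were called (47.1%), near the 47.2% of all single-gene probe sets, and 11 of 12 cap mesenchyme ones (91.7%). The median distance from background was 2.13 on the log2 scale for the stromal genes and 5.95 for the cap mesenchyme genes. Over all named genes it was 1.20. Foxd1, which defines cortical stroma, read 7370 (pool 1), 7389 and 7938 (adjusted p = 1.6e-08, limma). The summed signal of the stromal list was 29135, 23613 and 23484 in pools 1, 2 and 3, and its count fell to 4 at the 99th percentile of background, where Col1a1, Dcn and Pdgfra lost their calls. Of 6 markers of ureteric and medullary mesenchyme and smooth muscle, the tissue known to respond to Shh in the ureter, 1 passed, Acta2 (943 ± 190.0, SD, n = 3), and only through a probe set that can match several transcripts. The summed signal of that list was 1579, 1496 and 1021, and Tbx18, which defines ureteric mesenchyme, averaged 66.0 ± 67.4 (SD, n = 3), under the background level. The part of stromal cells in the Ptch1, Smo, Gas1 and Gli signals was not tested.

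Ptch1, Smo, Sufu, Gli2 and Gli3 passed in 12 of 12 alternatives, and Shh, Ihh and Dhh in 0 of 12. Gli1 passed in 1 of 12.

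**Figure D5:**
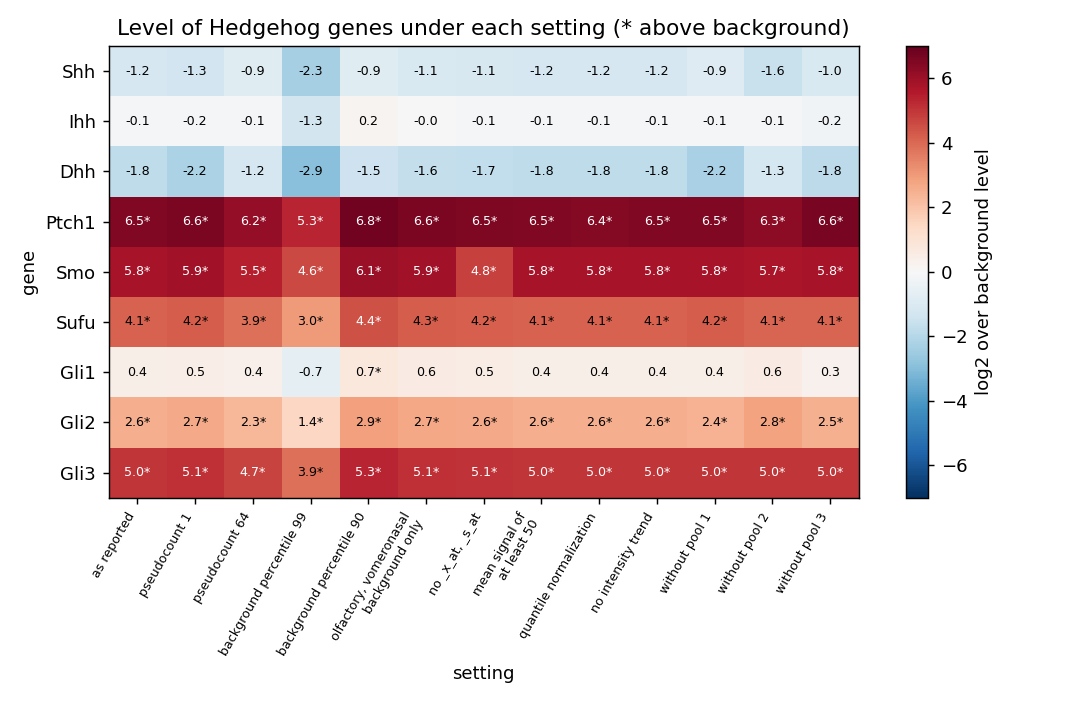
Distance from background on the log2 scale (colour and printed value) of the 9 Hedgehog genes, each by its probe set with the smallest adjusted p, as reported and under 12 alternatives, with * for genes above background. Ptch1, Smo, Sufu, Gli2 and Gli3 carry * in every column, Gli1 in that of the 90th percentile alone, and the ligand genes in none.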

How the data were processed

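Total RNA from 3 pools of sorted cap mesenchyme was amplified in 2 rounds, labelled with biotin and hybridised to a mouse Affymetrix array, per the labels' protocols. The deposited values are linear intensity signals, 1 per probe set and array, which the authors made with GCOS (Affymetrix array software), per the submitters' processing notes; its version, its settings and the genome build are not given in the sources used here. As tested on the values, the mean without the lowest and highest 2% was 1500 on each array. Any difference between pools in overall signal is lost by such scaling.

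From the deposited signals, log2(signal + 16) minus the background level of the array was computed for all 45037 probe sets without the 64 controls, and tested one-sided against 0 with limma 3.58.1 in R 4.3.3 (intercept-only model, eBayes with intensity trend, Benjamini-Hochberg adjustment over all of them). The pseudocount understates differences of weak signals. Of the 150 background probe sets, which set the level, 2 were called. The 932 probe sets with several symbols and the 9160 with none named no gene, and 0 of those with several held a Hedgehog symbol. Tested on simulated data of the 45037 probe sets, 200 probe sets placed at the level were called in 1.5% of cases, 200 at 0.5 log2 over it in 30%, 200 at 1 log2 in 91% and 200 at 2 log2 in 100%. The simulated noise was normal and independent between pools, and the background probe sets kept their observed values. Placed probe sets were drawn at random and kept the spread fitted at their own intensity, so these rates may not hold for real probe sets near background. With 3 arrays, precision is limited by their number.

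The Hedgehog genes, the 6 further pathway lists and the 9 marker lists were chosen with earlier results of these data known, so lists are given as counts, set against the share of all named genes, with no list test. Every gene of these lists could be named. No gene was named for a pattern like that of a Hedgehog gene, since a likeness over 3 arrays of 1 group cannot be measured. In the lists, Emr1 was matched to Adgre1 through its gene identifier. The alternatives were a pseudocount of 1 or 64, the 90th or 99th percentile of background, a background of olfactory and vomeronasal probe sets only, leaving out probe sets that can match several transcripts, a mean signal of at least 50, quantile normalization, no intensity trend, and leaving out each pool. Tables were made in Python 3.11.15 (pandas 2.3.3), and figures with matplotlib 3.10.9.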

Additional observations from a re-analysis of the deposited data

How the results depend on the processing

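Of the 9 Hedgehog genes, 5 to 6 were above background over 12 alternatives, and 6 to 9 of their probe sets; over all named genes the count was 8382 to 10303. With the background level at its 90th percentile Gli1 passed (0.74 on the log2 scale, adjusted p = 0.038, limma) and Ihh lay over the level without passing (0.17, adjusted p = 0.58), and at its 99th percentile Gli1 lay under it (-0.70). Leaving out probe sets shared by several transcripts removed the Smo probe set 1427049_s_at and the call of Arrb2, and leaving out pool 2 removed the call of Dcn and added that of Tctn1. The pathway lists kept their counts within 1.5 times under each alternative. Among marker lists, at the 99th percentile 0 ureteric and 4 stromal genes passed, at the 90th percentile 1 macrophage gene (Cd68) passed, and with probe sets shared by several transcripts left out 0 genes of ureteric mesenchyme and smooth muscle did. Leaving out a pool gave 1 to 2 ureteric genes. With a mean signal of at least 50, which removes dim probe sets, 3 called Hedgehog genes in place of 5 had a probe set that was not called. The share of all called single-gene probe sets with a 2-fold range was 4.15% to 8.51% when 1 pool was left out (4.15% without pool 1, 4.56% without pool 3), where the range spans 2 pools. The alternatives for the marker lists, the pool ranges and the disagreement of probe sets were chosen after seeing the data. Array signals near the background level limit the calls of Gli1, Ihh and Hhat. No paired analysis was possible because there is a single group.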
